A study of Mus musculus with 12 samples.

Results

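*Slc12a1*, *Slc12a2*, *Slc12a3*, *Slc12a4*, *Slc12a5* and *Slc12a7* encode cation chloride cotransporters, and they were taken by name as 6 of the 21938 protein-coding genes of GENCODE vM21 on mm10. For each gene, peaks of H3K27ac, a mark of active promoters and enhancers, and of H3K27me3, the mark set by Polycomb repressive complexes, were read in a window that began 5 kb before the transcription start site (TSS) of the gene record and ended at the last annotated base. In the neonatal cortex the genes fell into distinct patterns. *Slc12a5* carried H3K27me3 in all 4 lists of that mark and no H3K27ac peak in any list. *Slc12a2* carried H3K27ac at its TSS and no H3K27me3 peak in any list. *Slc12a4* and *Slc12a7* carried H3K27ac in all 4 lists together with some H3K27me3, and the kidney genes *Slc12a1* and *Slc12a3* were nearly free of both marks.

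The cells came from cortex of *Gad67-GFP* heterozygote mice at postnatal day 2, from a mixed background outcrossed to CD-1, and GFP expressed from the *Gad67* locus marked GABAergic cells. Sorted GFP+ cells were cortical interneurons (CINs), and GFP- cells were non-CINs, which hold glutamatergic neurons, glia and every other cell without GFP. Native ChIP after micrococcal nuclease digestion was done in 2 replicates of each population for each mark, each sample from tissue pooled over several litters, and gave 8 lists of broad peaks, while 4 input samples entered only through the peak calling of the authors. The replicates were described as independent experiments, and with 2 lists against 2 the smallest p of a two-sided exact permutation test is 0.333, so every comparison below is read as the order of the lists. A peak list of a sorted population cannot tell a mark present in fewer cells from a weaker mark in all of them, and the absence of a peak means only that none was called.

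Cation chloride cotransporters carry chloride across the plasma membrane together with sodium or potassium, and the chloride gradient they leave sets the sign of the response to GABA. NKCC1, encoded by *Slc12a2*, brings chloride into immature neurons, where GABA is depolarising. KCC2, encoded by *Slc12a5*, is the neuronal K-Cl cotransporter that extrudes chloride, and its rise after birth in rodents lowers intracellular chloride so that GABA becomes inhibitory. NKCC2 (*Slc12a1*) and NCC (*Slc12a3*) reabsorb salt in the kidney, where they are the targets of loop and thiazide diuretics, and KCC1 (*Slc12a4*) and KCC4 (*Slc12a7*) are K-Cl cotransporters with wider expression that take part in the control of cell volume.

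The H3K27ac lists held 46040–62505 peaks over 40.8–56.3 Mb, and the H3K27me3 lists held 36662–45081 peaks over 34.5–49.8 Mb. Read numbers were not used here, and only these counts and lengths stand for the depth of a sample. The sort was checked by H3K27ac at marker genes. Of 10 interneuron markers, 7 had more H3K27ac in both CIN lists than in either non-CIN list and 0 had the reverse, and their summed covered length was 79893 and 63719 bp in the 2 CIN lists against 19310 and 21691 bp in the 2 non-CIN lists. *Lhx6* and *Sst*, both interneuron genes, had no H3K27ac peak in any list and H3K27me3 in all 4. The 4 astrocyte markers all had more H3K27ac in both non-CIN lists, as did 2 of 4 microglia markers, whereas 1 of 6 pyramidal neuron markers and 1 of 5 oligodendrocyte markers did so in each direction. Of 4 endothelial markers, 1 had more H3K27ac in both CIN lists.

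The window of *Slc12a5* (ENSMUSG00000017740.17, chromosome 2, 164960802–164999731, plus strand) was 43.9 kb long. H3K27me3 peaks covered 8027 bp of it in CIN replicate 1, 8243 bp in CIN replicate 2, 7358 bp in non-CIN replicate 1 and 7595 bp in non-CIN replicate 2. These lengths came from 5, 7, 7 and 6 peaks and amounted to 18.3%, 18.8%, 16.7% and 17.3% of the window. Ranked by the covered share, *Slc12a5* stood at percentiles 94.8, 93.5, 94.2 and 93.0 of all protein-coding genes. The fold enrichment of its strongest H3K27me3 peak, used only as a rank within its own list, was at percentiles 93.5, 95.9, 91.3 and 94.6. The gene thus ranked high in each of the 4 lists, by length and by strength alike.

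**Figure D1:**
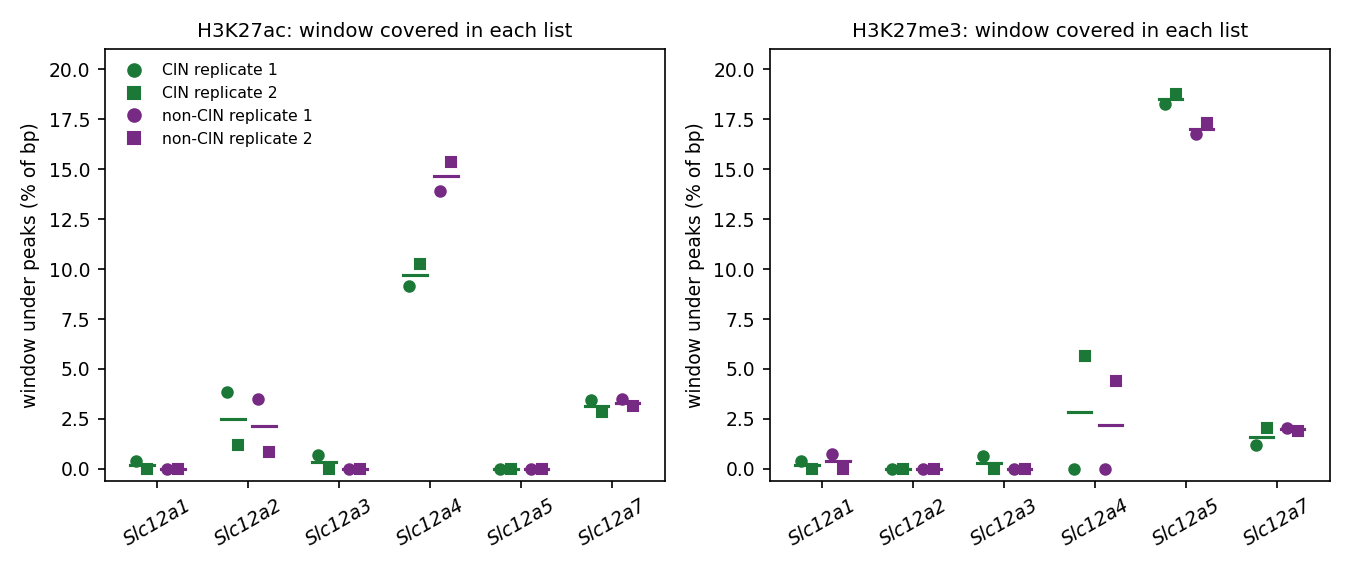
Percent of each gene window under peaks of H3K27ac (left) and H3K27me3 (right) in each list. Circles are replicate 1, squares are replicate 2, green is CIN, purple is non-CIN, and bars are means of 2 lists. *Slc12a4* has the highest H3K27ac values and *Slc12a5* the highest H3K27me3 values, 16.7–18.8%.

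*Slc12a5* has start sites at 2 places. Transcripts of the first group start within 44 bp of the gene start, and those of the second, which include 2 protein-coding transcripts of the basic set, start 7.18 and 7.44 kb further in. The longest stretch of H3K27me3 surrounded the internal start sites. It ran as a single peak from 4.99 to 10.3 kb after the TSS in CIN replicate 1, and as 4, 4 and 3 peaks between 4.18 and 11.5 kb in CIN replicate 2, non-CIN replicate 1 and non-CIN replicate 2. In the lists with several peaks, a gap lay at or near the internal start sites, from 7.24 to 7.81 kb, from 7.37 to 7.60 kb and from 7.11 to 7.89 kb. The promoter windows of these 2 transcripts, from 1 kb before to 100 bp after the start site, met H3K27me3 in 4 of 4 lists, and those at the gene start met it in 0 of 4. Neither place had H3K27ac in any list. Further H3K27me3 flanked the domain. Upstream there were 2 separate sites, and neither was in all 4 lists. The far site, between 5.47 and 4.44 kb before the TSS, was listed in CIN replicate 1 and in both non-CIN replicates, and the near site, between 3.44 and 2.41 kb before it, in both CIN replicates and non-CIN replicate 1. A stretch 36.0 to 38.1 kb after the TSS, over the last exons and the 3′ UTR, had peaks in all 4 lists.

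**Figure D2:**
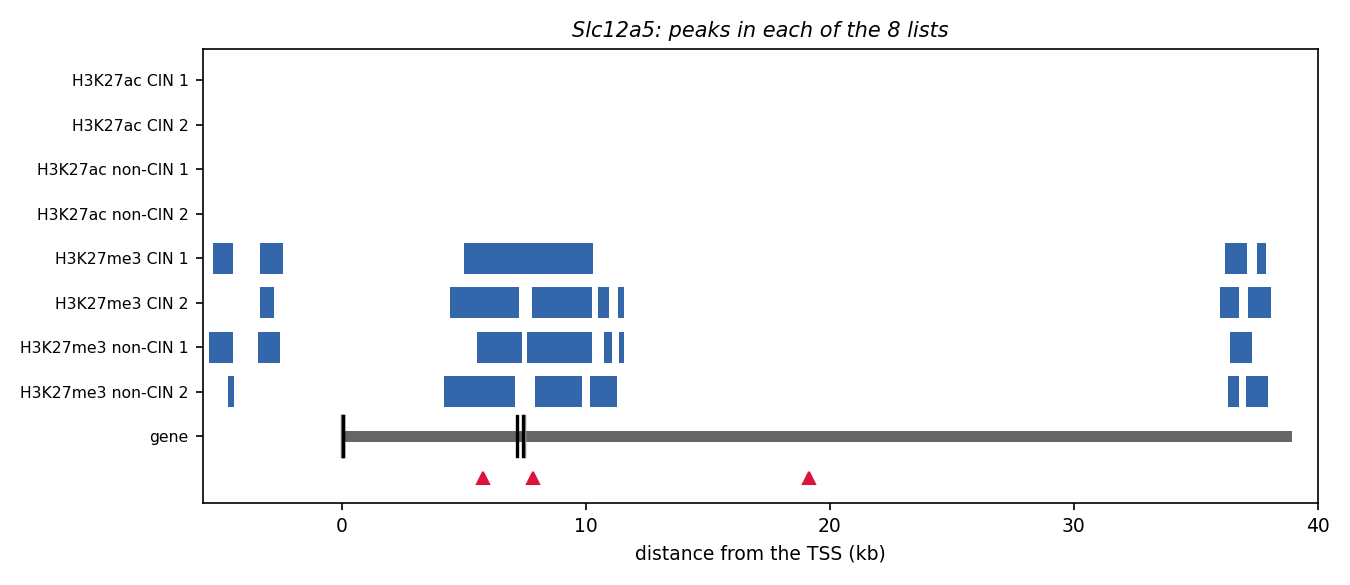
Peaks at *Slc12a5* in the 8 lists against distance from the TSS in kb. The grey bar is the gene, black ticks are start sites of protein-coding transcripts of the basic set, grey ticks are other annotated start sites, and triangles are matches to the RE1 motif. The longest stretch of H3K27me3 (blue) lies around the internal start sites, with further peaks upstream of the TSS and near the gene end. No peak lies at the start sites at 0, and the 4 H3K27ac rows are empty.

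The sequences before both groups of *Slc12a5* start sites are shown because the mark separated them. They are from the promoter table of RefSeq (GRCm38.p6, 300 bp for each start site, 5 of the 6 genes matched and *Slc12a2* did not) and are cut to the bases that no exon overlaps. Both are on the plus strand, and capitals mark CpG dinucleotides. The first lies at the gene start (chr2:164960596-164960801) and the second at the internal start site (chr2:164967738-164967982).
Slc12a5 gene start: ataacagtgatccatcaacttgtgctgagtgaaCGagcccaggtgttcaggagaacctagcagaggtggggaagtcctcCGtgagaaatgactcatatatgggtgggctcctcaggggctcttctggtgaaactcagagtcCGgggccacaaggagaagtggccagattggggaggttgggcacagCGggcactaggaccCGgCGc
Slc12a5 internal start: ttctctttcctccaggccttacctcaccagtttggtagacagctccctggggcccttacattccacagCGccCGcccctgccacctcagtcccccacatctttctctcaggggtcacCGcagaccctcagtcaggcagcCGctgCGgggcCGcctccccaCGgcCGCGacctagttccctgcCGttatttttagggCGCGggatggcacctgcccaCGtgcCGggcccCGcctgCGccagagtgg
The first holds 6 CpG in 206 bp and the second 16 CpG in 245 bp. Over the full 300 bp, which run into the first exon, both held 21 CpG, at percentile 76.0 of 32851 promoters, whose median was 7.

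REST, a repressor that silences neuronal genes in other cells, binds the RE1 element, and such elements are known in *Slc12a5*. The window of each gene except *Slc12a2*, whose chromosome was not searched, was read on both strands for its left part TTCAGCACC and its right part GGACAGNGC with 2 bases between them, allowing up to 2 mismatches over the 17 fixed letters. There were 3 matches and all lay in *Slc12a5*, on the minus strand, at chr2:164966571-164966590, chr2:164968650-164968669 and chr2:164979936-164979955. They are printed on that strand, with capitals for letters equal to the motif.
RE1 match at 5.77 kb: TTCAGgACCttGGACAGaGt
RE1 match at 7.85 kb: TcCAGaACCgtGGACAGcGC
RE1 match at 19.1 kb: TTCAGCACCacGGACAGcag
H3K27me3 peaks lay over the first in 4 of 4 lists, over the second in 3 and over the last in 0. At least 1 match was found in 693 of 21425 gene windows (3.23%), in 3.41% of 2111 windows of 40 to 60 kb, and at least 3 in 20 windows (0.0933%). A match describes letters only and says nothing of binding.

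No H3K27ac peak met the *Slc12a5* window in any of the 4 lists. The nearest one lay upstream in each list, 21.4 kb from the TSS in CIN replicate 1, 48.2 kb in CIN replicate 2, 47.2 kb in non-CIN replicate 1 and 48.2 kb in non-CIN replicate 2. Among all protein-coding genes, 5.68% had H3K27me3 in all 4 lists and H3K27ac in none, and 1 of the 6 genes, *Slc12a5*, did. The share was 5.06% among the 2176 genes with windows of 40 to 60 kb. In all, 2 of the 6 pyramidal neuron markers, *Neurod2* and *Slc17a7*, had the same pattern, as did *Lhx6* and *Sst* and the endothelial gene *Cldn5*, which makes 5 of the 33 markers. *Slc17a7* encodes the vesicular glutamate transporter of cortical glutamatergic neurons, so genes of glutamatergic and of GABAergic neurons both had this pattern.

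The 2 CIN values of *Slc12a5* H3K27me3 lay above the 2 non-CIN values. The means were 8135 ± 153 bp in CINs and 7476.5 ± 168 bp in non-CINs (SD, n = 2), a difference of 658.5 bp (two-sided exact permutation test, p = 0.333). This order depended on where the window began and on the threshold for peaks. With a window from the TSS itself the values were 6520, 7650, 5930 and 7373 bp, with a window from 10 kb before it they were 10732, 11968, 10781 and 10718 bp, and with peaks of −log10 q of at least 4 they were 6248, 7245, 5926 and 7373 bp, in the order CIN 1, CIN 2, non-CIN 1, non-CIN 2. The populations overlapped in each of these settings. With the 30000 strongest peaks of each list the values were 8027, 8243, 6846 and 7595 bp, and the order was kept. Markers of other cells moved with the order. Summed H3K27me3 was 52525 and 60011 bp in the CIN lists against 49775 and 52025 bp for the 6 pyramidal neuron markers, 25125 and 26737 bp against 22837 and 23335 bp for the 5 oligodendrocyte markers, and 1562 and 2838 bp against 689 and 0 bp for the 4 astrocyte markers. Of these markers 1, 2 and 1 were higher in both CIN lists, 0, 1 and 0 in both non-CIN lists, and the astrocyte gene *Aqp4* had no H3K27me3 in any list. The sums of the interneuron, microglia and endothelial markers overlapped between populations. Of the 10 interneuron markers, however, 5 had more H3K27me3 in both non-CIN lists and 0 in both CIN lists, the reverse of *Slc12a5*. Among microglia and endothelial markers there were 0 in each direction. The part of these cells in the *Slc12a5* result was not tested. The stretches shared by both replicates, called high-confidence (HC) peaks, numbered 4 in CINs over 6965 bp and 4 in non-CINs over 6071 bp, and none was called in 1 population alone.

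The genes whose covered shares were most like those of *Slc12a5*, by Euclidean distance over the 8 covered shares in percent of the window, were *Otop1* (distance 0.603), *Adrb3* (2.27) and *Myl3* (2.32). None of these 3 genes had an H3K27ac peak in its window. For *Slc12a2* the nearest were *Brpf3* (0.578), *Mb* (0.643) and *Fbxo10* (0.838), none with H3K27me3.

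*Slc12a2* (ENSMUSG00000024597.11, chromosome 18, 57878678–57946821, plus strand) has a single transcript in the basic set and a window of 73.1 kb. H3K27ac covered 2797 bp in CIN replicate 1, 880 bp in CIN replicate 2, 2554 bp in non-CIN replicate 1 and 604 bp in non-CIN replicate 2, from 4, 2, 3 and 1 peaks. Replicate 1 exceeded replicate 2 by about the same amount in both populations, so the populations overlapped. The means were 1838.5 ± 1356 bp in CINs and 1579 ± 1379 bp in non-CINs (SD, n = 2, two-sided exact permutation test, p = 0.667). Within each replicate number the CIN list covered more.

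A peak just before the *Slc12a2* TSS was the strongest of the window in all 4 lists. It spanned 978 bp before to 89 bp after the TSS in CIN replicate 1 and 994 bp before to 80 bp after it in non-CIN replicate 1. In the replicate 2 lists it ended 278 bp (CIN) and 279 bp (non-CIN) before the TSS. Its fold enrichment was at percentiles 79.5, 86.1, 81.8 and 80.6 of the lists, a narrow range compared with the covered length. The promoter window of the transcript met H3K27ac in 4 of 4 lists. The other peaks were weaker and lay within 8.58 kb downstream, in the first exon and an intron. A peak between 3.20 and 4.18 kb was listed in both replicate 1 lists, at percentiles 43.3 in CINs and 7.63 in non-CINs, and in neither replicate 2 list.

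No H3K27me3 peak met the *Slc12a2* window, and the nearest was 110 to 247 kb from the TSS. Of all protein-coding genes, 32.7% had H3K27ac in all 4 lists and H3K27me3 in none, and 1 of the 6 genes did. The pattern of *Slc12a2* was therefore common, whereas that of *Slc12a5* was found in a smaller share of genes.

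**Figure D3:**
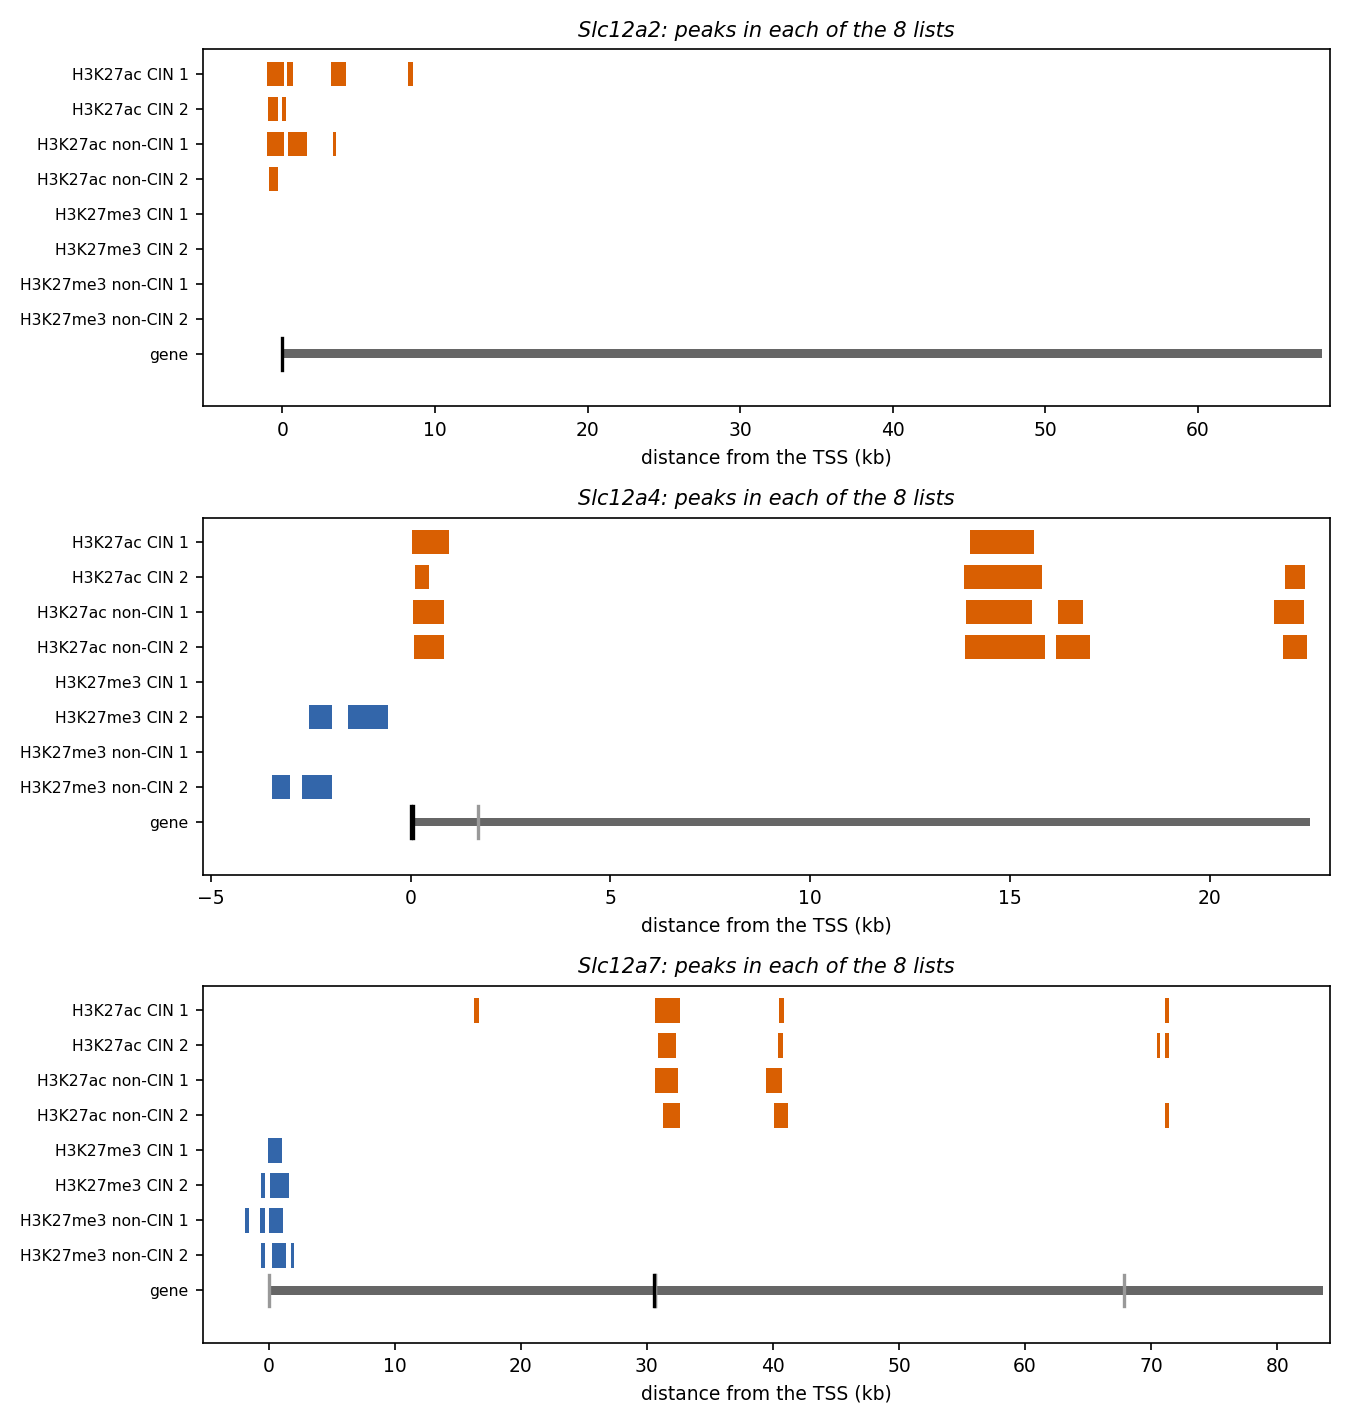
Peaks at *Slc12a2*, *Slc12a4* and *Slc12a7* in the 8 lists against distance from the TSS in kb, with H3K27ac in orange and H3K27me3 in blue. Grey bars are genes, black ticks start sites of protein-coding transcripts of the basic set, and grey ticks other annotated start sites. At *Slc12a7* H3K27me3 lies at the first start site. H3K27ac lies at or after the coding start, 30.6 kb further in, except for 1 weak peak at 16.3 kb in CIN replicate 1. At *Slc12a4* a peak near 16.2 kb is present in the non-CIN lists and absent from the CIN lists.

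*Slc12a4* (ENSMUSG00000017765.17, chromosome 8, 105943590–105966097, minus strand) had the largest share of its window under H3K27ac of the 6 genes. Of its 27.5 kb, peaks covered 2523 bp in CIN replicate 1, 2827 bp in CIN replicate 2, 3827 bp in non-CIN replicate 1 and 4229 bp in non-CIN replicate 2. These values are 9.17%, 10.3%, 13.9% and 15.4% of the window, at percentiles 78.9, 85.7, 88.6 and 91.6 of all genes. Both non-CIN values lay above both CIN values, with means of 4028 ± 284 bp and 2675 ± 215 bp (SD, n = 2), a difference of -1353 bp for CINs minus non-CINs (two-sided exact permutation test, p = 0.333). Its strongest peak was at percentiles 79.8, 79.7, 80.7 and 90.2 of lists that differ in length.

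The strongest *Slc12a4* peak lay inside the gene, about 13.9 to 15.9 kb after the TSS, over introns and coding exons, in all 4 lists. A second peak began within 107 bp after the TSS and ended at most 959 bp after it, also in all 4 lists, at percentiles 55.8, 20.4, 74.6 and 31.7. Another, from 16.1 to 17.0 kb, was listed in both non-CIN lists, at percentiles 31.1 and 57.1, and in neither CIN list. In non-CIN replicate 2 it lay within 500 bp of the 13.9 kb peak and was merged with it, so it was not called as a region of non-CINs alone; without merging it was. The last, at the end of the gene between 21.6 and 22.4 kb, was listed in all lists but CIN replicate 1. With peaks of −log10 q of at least 4, the covered lengths were 2523, 2467, 2441 and 4229 bp, and the populations overlapped. With the 30000 strongest peaks of each list they were 2523, 2467, 2441 and 3469 bp and also overlapped. The order thus rested on weak peaks in non-CIN replicate 1.

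Astrocyte markers moved with this order. Their summed H3K27ac was 45365 and 42545 bp in the CIN lists and 68817 and 70705 bp in the non-CIN lists, and all 4 were higher in both non-CIN lists. For the 4 microglia markers the sums were 12878 and 11572 bp against 18169 and 15328 bp, and *Aif1* had no peak in any list. The part of these cells in the *Slc12a4* result was not tested.

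H3K27me3 at *Slc12a4* was listed in the replicate 2 samples and not in those of replicate 1. It covered 1560 bp in CIN replicate 2 and 1208 bp in non-CIN replicate 2, between 0.578 and 3.48 kb before the TSS, at percentiles of at most 35.3 and 57.5. With replicate 1 at 0 bp in both populations, no H3K27me3 peak was shared by replicates. The antisense gene *Gm16156* overlaps 2254 bp of the window at its far end, where the peak between 21.6 and 22.4 kb lies, and a ChIP peak has no strand. *Mir7074* (105951637–105951699) lies inside the strongest H3K27ac peak of *Slc12a4* in every list. Leaving out other genes therefore also removed part of that peak. Without the stretches of other genes and their promoters the H3K27ac lengths were 2055, 1709, 2510 and 3037 bp, in the same order between populations.

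*Slc12a7* (ENSMUSG00000017756.9, chromosome 13, 73733094–73816754, plus strand) carried both marks in all 4 lists of each, at separate places. Its gene record begins at a non-coding processed transcript, and the protein-coding transcript of the basic set starts 30.6 kb further in. H3K27me3 lay at the first start site in all 4 lists. It covered 1047 bp in CIN replicate 1, 1812 bp in CIN replicate 2, 1812 bp in non-CIN replicate 1 and 1692 bp in non-CIN replicate 2, between 1.85 kb before and 1.99 kb after that site. The strongest of these peaks was at percentiles 91.9, 87.6, 86.4 and 89.1, so a short stretch ranked high in every list.

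In CIN replicate 1 alone, a weak 363 bp H3K27ac peak lay 16.3 to 16.7 kb from the *Slc12a7* gene start, at percentile 1.88. The first H3K27ac site found in all 4 lists began just after the coding start, at 30.6 to 31.3 kb, and ended at 32.3 to 32.6 kb. The promoter window of the coding start met it in 2 of 4 lists, those of replicate 1. A second site at 39.5 to 41.2 kb was also in all 4, and the third near 71.1 kb was in both CIN lists and non-CIN replicate 2. In all, the covered length was 3052 bp in CIN replicate 1, 2529 bp in CIN replicate 2, 3122 bp in non-CIN replicate 1 and 2768 bp in non-CIN replicate 2, with means of 2790.5 ± 370 and 2945 ± 250 bp (SD, n = 2, two-sided exact permutation test, p = 0.667). The populations overlapped, although within each replicate number the non-CIN list covered more. Percentiles of the strongest peak were 66.4, 53.7, 57.0 and 40.1, lower than for *Slc12a2* and *Slc12a4* in every list. The sequence before the coding start of *Slc12a7* (chr13:73763410-73763659, plus strand, RefSeq, GRCm38.p6) is given for its CpG content, marked in capitals, beside that of *Slc12a1* (chr2:125152350-125152504, plus strand), where neither mark was listed.
Slc12a7 coding start: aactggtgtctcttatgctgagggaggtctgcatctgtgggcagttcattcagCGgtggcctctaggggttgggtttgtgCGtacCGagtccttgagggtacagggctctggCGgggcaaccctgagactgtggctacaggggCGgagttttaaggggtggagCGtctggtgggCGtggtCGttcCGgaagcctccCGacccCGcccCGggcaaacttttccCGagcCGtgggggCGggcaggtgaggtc
Slc12a1 start: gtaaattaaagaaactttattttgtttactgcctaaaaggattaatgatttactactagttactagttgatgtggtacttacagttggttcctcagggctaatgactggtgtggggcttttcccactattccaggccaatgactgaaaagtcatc
The *Slc12a7* sequence holds 15 CpG in 250 bp, and that of *Slc12a1* holds 0 in 155 bp. Over 300 bp, CpG counts were 23 and 27 at the start sites of *Slc12a7*, 20 at *Slc12a4*, 5 at *Slc12a1* and 4 at *Slc12a3*. Among the start sites with a sequence, those of *Slc12a4*, *Slc12a5* and *Slc12a7* thus had more CpG than those of the kidney genes, and the gene start of *Slc12a5*, without either mark, held as many as its internal start. The core GCGNGGGCG of EGR factors, searched on both strands because EGR4 is a known activator of *Slc12a5*, was in 5.55% of all promoters and in 0 of these.

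*Slc12a1* (ENSMUSG00000027202.12, chromosome 2, 125152505–125230002, plus strand) and *Slc12a3* (ENSMUSG00000031766.4, chromosome 8, 94329201–94366214, plus strand) had few peaks. For *Slc12a1*, H3K27ac was listed only in CIN replicate 1, as a 326 bp peak in an intron at percentile 20.7. H3K27me3 covered 334 bp in CIN replicate 1 and 619 bp in non-CIN replicate 1, in an intron 39.0 to 39.6 kb after the TSS, and 0 bp in both replicate 2 lists. For *Slc12a3*, CIN replicate 1 had a 285 bp H3K27ac peak at percentile 72.7 and a 263 bp H3K27me3 peak at percentile 69.9, 29.2 and 24.3 kb after the TSS, and the other 3 lists of each mark had none. No promoter window of either gene met a peak of either mark. In CIN replicate 1, the list with the most H3K27ac peaks, 5 of the 6 genes had an H3K27ac peak (64.3% of all genes), and in CIN replicate 2 the number was 3 (60.4%).

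**Figure D4:**
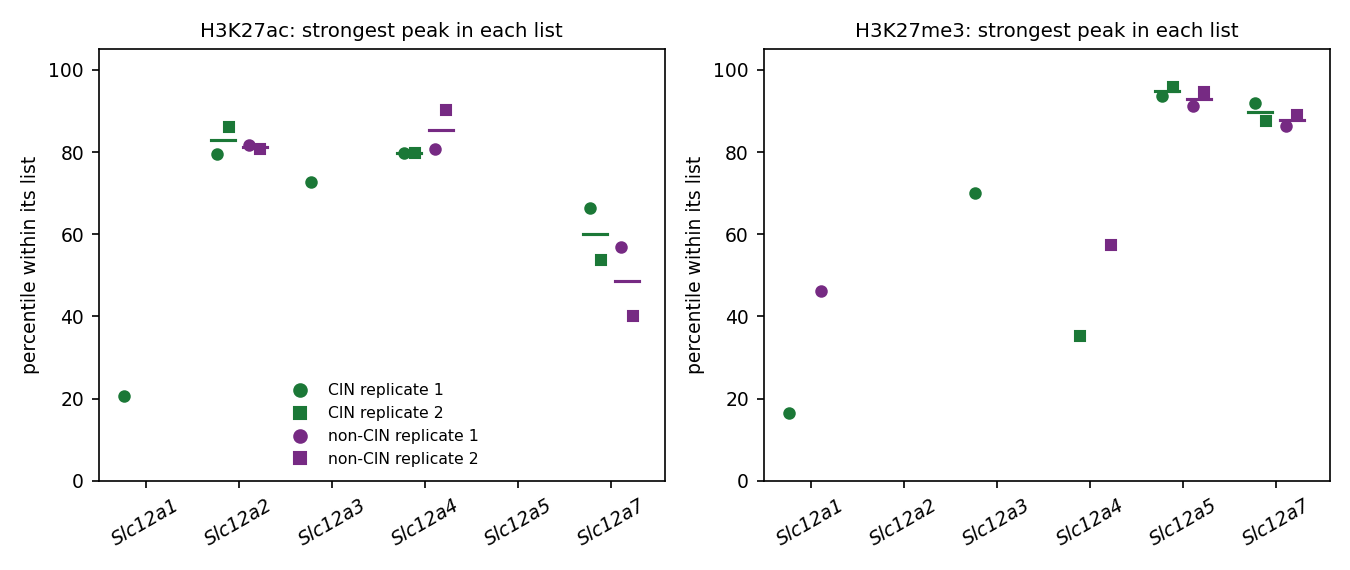
Percentile, within its own list, of the fold enrichment of the strongest peak in each window, for H3K27ac (left) and H3K27me3 (right). Symbols are as in the plot of covered share, and genes without a peak in a list have no point there. The H3K27me3 values of *Slc12a5* lie at 91.3–95.9 and those of *Slc12a7* at 86.4–91.9.

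Across the 6 genes, 3 (*Slc12a2*, *Slc12a4* and *Slc12a7*) had H3K27ac in all 4 lists, where 56.8% of all protein-coding genes did, and 1 had it in none (33.1% of all genes). H3K27me3 was in all 4 lists for *Slc12a5* and *Slc12a7* (21.1% of all genes) and in none for *Slc12a2* (59.2%). Both marks were in all 4 lists of each for *Slc12a7* (11%). The windows of these genes are long, with a median of 58.5 kb against 22.4 kb, and the share with H3K27ac in all 4 lists was 63.2% among genes of 20 to 40 kb, 70.4% among those of 40 to 60 kb and 75.9% among those of 60 to 100 kb. No base of any window lay under both marks in the lists of 1 population and replicate number.

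**Figure D5:**
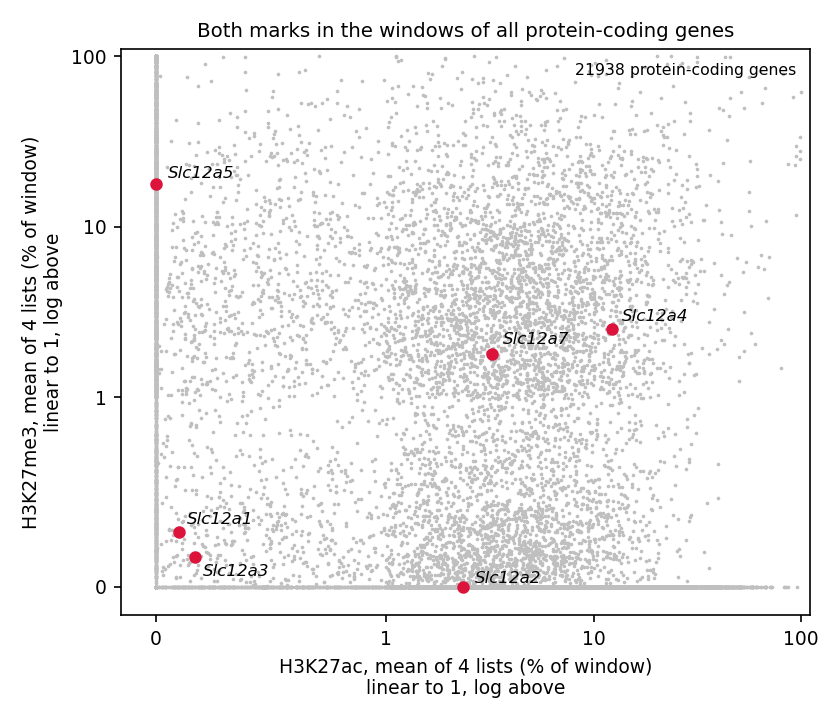
Mean share of the window under H3K27ac (horizontal) and H3K27me3 (vertical), in percent over the 4 lists of each mark, for 21938 protein-coding genes (grey) and the cotransporter genes (red). Both axes are linear up to 1 and logarithmic above. *Slc12a5* lies on the vertical axis at 17.8% H3K27me3 and *Slc12a2* on the horizontal axis at 2.34% H3K27ac.

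HC peaks of H3K27ac were found in 3 genes in CINs (59.2% of all genes) and in the same 3 in non-CINs (58%), and those of H3K27me3 in 2 genes in CINs (21.1%) and the same 2 in non-CINs (21.9%). No gene had more H3K27ac in both CIN lists than in either non-CIN list (12.1% of all genes), and 1, *Slc12a4*, had the reverse (12%). For H3K27me3, 1 gene, *Slc12a5*, had more in both CIN lists (2.99%) and 0 had more in both non-CIN lists (4.53%). Regions of H3K27ac called in CINs alone (6.80% of all genes) and in non-CINs alone (6.85%) were found in 0 of the 6 genes, as were regions of H3K27me3 called in CINs alone (1.38%) and in non-CINs alone (2.09%). The set of genes with HC H3K27ac peaks depended on the window at *Slc12a2*. With a window from the TSS its covered lengths were 1819, 213, 1560 and 0 bp, and HC peaks were found in 3 genes in CINs and 2 in non-CINs.

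Other genes of chloride transport, and kinases and partners that act on the cotransporters, were read in the same way, in 4 lists with 24 genes. The windows of these genes ran from 7469 to 332402 bp, so shares among genes of 60 to 100 kb are given as well. H3K27ac was in all 4 lists for 22 of the 24 genes (56.8% of all genes, 75.9% of those of 60 to 100 kb). It was in none for 2 (33.1% and 11.6%). These were *Wnk4*, a kinase gene, and *Egr4*, and both had H3K27me3 in all 4 lists, a pattern found in 5.68% of all genes. At *Wnk4*, H3K27me3 covered 6895 and 8932 bp in the CIN lists and 6790 and 9849 bp in the non-CIN lists. At *Egr4* it covered 5060 and 4996 bp against 4917 and 5250 bp. In H3K27ac, 4 of the 24 genes had more in both CIN lists and 5 had more in both non-CIN lists, where 12.1% and 12% of all genes did. Among the WNK, SPAK and OSR1 kinases and their scaffolds these numbers were 1 and 3 of 8, among partners and regulators of KCC2 0 and 1 of 6, among other chloride and bicarbonate routes 2 and 1 of 8, and among other SLC12 genes 1 and 0 of 2. In H3K27me3, 5 of the 24 had peaks in all 4 lists (21.1% of all genes) and 9 in none (59.2%), so the share with peaks in all 4 lists was near that of all genes. More H3K27me3 in both CIN lists was found in 1 (2.99%) and more in both non-CIN lists in 3 (4.53%).

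The largest of these H3K27ac differences, in percent of the window, was at *Ckb*, the brain creatine kinase that binds KCC2. It had 2053 and 1703 bp in the CIN lists, below the 2528 and 2075 bp of the non-CIN lists. *Wnk2*, a kinase of the WNK family that acts on cotransporters, had 5631 and 2966 bp, against 8717 and 7185 bp in non-CINs. The anion exchanger gene *Slc4a2* had 2168 and 1848 bp against 2673 and 2466 bp. In these 3 genes non-CINs were higher. *Cab39*, a scaffold of the SPAK and OSR1 kinases, had 3008 and 2128 bp against 3027 and 3043 bp, in the same direction. CINs were higher at *Slc12a9*, with 1437 and 1354 bp against 1153 and 889 bp, and at *Car2*, a carbonic anhydrase gene, with 4114 and 3893 bp against 3631 and 3837 bp.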

How the data were processed

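Reads were aligned by the authors to mm10 with BWA mem 0.7.15 and filtered on mapping quality with samtools, and broad peaks were called by replicate with MACS2 against the matched input, without a model or local background (version 2.2.7 in the processing notes; the methods name another). Each deposited peak has a score, which the authors' peak caller made from the q value, a fold enrichment (the ratio of ChIP to input signal), and −log10 p and −log10 q values. Only positions, fold enrichment and −log10 q were used. Covered length is the bp of a window under the peaks of a list as deposited. Percentile is the share of a list with a lower fold enrichment, with ties at their mid-rank.

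Peaks up to 500 bp apart were merged only to find peaks shared by both replicates (HC) and regions of 1 population alone. The latter had to meet no peak of the other population within a replicate number, and to recur in both replicates. Genes came from the GENCODE vM21 basic set, matched to mm10 (GRCm38), and promoter sequences from RefSeq on GRCm38.p6, with chromosome 18 left out. The 2 populations were compared over lists by a two-sided exact permutation test. Values are given for all 6 members, 3 genes most alike in the shares of their windows under peaks were named for *Slc12a2* and *Slc12a5*, and values for other genes were given for at most 6 of the 24 in the pathway lists, those that differed most in H3K27ac among those without overlap between populations. Values were also given for *Wnk4* and *Egr4*, and for markers, after they were seen.

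The members and lists were chosen with earlier results of these data known. Python 3.11.15, NumPy 2.4.6, SciPy 1.17.1 and matplotlib 3.10.9 were used. On simulated data, 40 of 40 interval operations equalled those of bedtools 2.31.1, and 100 of 100 planted regions were recovered. The alternatives were other windows, annotation, thresholds, list sizes, merging and overlap rules, the replicate block and leaving out lists. A window from the first protein-coding start site was added after seeing the data. Read coverage signal was not analysed here.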

Additional observations from a re-analysis of the deposited data

How the results depend on the processing

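The lists give calls without depth, so weak peaks come and go with the threshold, and 2 lists a group cannot give a p that passes 0.05. For *Slc12a4* H3K27ac and *Slc12a5* H3K27me3, where the populations did not overlap, the sign of the difference in mean covered length was kept under each alternative run, but its size was not. For *Slc12a5* it went from 658.5 to 97 bp with −log10 q of at least 4, to 433.5 bp with the window from the TSS and to 914.5 bp with the 30000 strongest peaks. For *Slc12a4* it went from -1353 to -840 bp with −log10 q of at least 4, to -460 bp with the 30000 strongest peaks and to -891.5 bp without the stretches of other genes. Where the populations overlapped, the sign changed in 12 cases, 9 of them with a list left out. In the other 3 cases, CINs minus non-CINs went from 142.5 to -15.5 bp for *Slc12a3* H3K27ac (window from 10 kb), from 176 to -377 bp for *Slc12a4* H3K27me3 (−log10 q of at least 4) and from -322.5 to 5.5 bp for *Slc12a7* H3K27me3 (window from the TSS). Of the counts of genes or regions under all alternatives, 115 were within 1.5 times the reported count and 37 were not. The 5 differences in percentile of the strongest peak kept to within the spread of the replicates when peaks were ranked by −log10 q.

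The number of genes with more H3K27me3 in both CIN lists (reported as 1, *Slc12a5*) was 0 with windows from the TSS or from 10 kb before it, and 0 with −log10 q of at least 4. The number with more H3K27ac in both non-CIN lists (reported as 1, *Slc12a4*) was 0 with −log10 q of at least 4, and 2, with *Slc12a7* added, with a window from the first protein-coding start site, a setting chosen after seeing the data. With the 30000 strongest peaks that count was still 1, but the gene was *Slc12a7* in place of *Slc12a4*. The number with more H3K27me3 in both non-CIN lists went from 0 to 1 (*Slc12a7*) with −log10 q of at least 4 and to 1 with the 30000 strongest peaks. Regions of H3K27ac in non-CINs alone went from 0 to 1 with the 30000 strongest peaks and to 1 without merging. Genes with HC H3K27ac peaks in non-CINs went from 3 to 2 with the window from the TSS and with a reciprocal overlap of 50%, with 3 in CINs in both settings. Genes with HC H3K27me3 peaks in CINs went from 2 to 1 with a reciprocal overlap of 50%, and in each population to 1 with the window from the protein-coding start site, which drops the non-coding start of *Slc12a7*. The other causes were not tested.

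Pairing by replicate number was checked by the correlation, over genes, of deviations from the population mean in lists of the same number, which was 0.346 for H3K27ac (14672 genes) and 0.744 for H3K27me3 (8941 genes). With the replicate block, which asks for the same order within both numbers, 1 gene (*Slc12a2*) had more H3K27ac in CINs and 2 (*Slc12a4* and *Slc12a7*) had more in non-CINs. With no replicate block, 1 region of H3K27ac was called in non-CINs alone. The block changed no other count by over 1.5 times.

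When each list was left out in turn, the rules became looser, since 1 population then had a single list. Its genes with HC peaks were those with any peak in that list. Regions of 1 population alone came from the replicate number left in both populations, without recurrence. Counted so, genes with HC peaks ranged from 3 to 5 (H3K27ac, CINs) and from 2 to 4 (H3K27me3, CINs). The highest values came without CIN replicate 2 and are genes with any peak in CIN replicate 1. Regions of H3K27ac in CINs alone ranged from 0 to 5 and in non-CINs alone from 0 to 2, and regions of H3K27me3 alone in CINs or in non-CINs were 1 and 1 throughout. Genes with more H3K27ac in CINs ranged from 0 to 3 and in non-CINs from 1 to 2, and genes with more H3K27me3 in CINs from 1 to 2 and in non-CINs from 0 to 1.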

Other observations

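Peaks just outside the windows are given as values. The H3K27me3 peak nearest to the TSS of *Slc12a1* lay upstream in all 4 lists, at distances of 11.7 kb in CIN replicate 1, 11.7 kb in CIN replicate 2, 12.6 kb in non-CIN replicate 1 and 10.9 kb in non-CIN replicate 2. In the replicate 2 lists it was a long peak at percentiles 85.7 (CIN) and 90.7 (non-CIN), from 125136162 to 125140768 and from 125136100 to 125141562 on chromosome 2, over the start of the neighbouring gene *Ctxn2* (125136692–125147839, plus strand). In the replicate 1 lists it was at percentiles 5.08 (CIN) and 53.3 (non-CIN).

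The H3K27ac peak nearest to the TSS of *Slc12a5* in the replicate 2 lists ranked high, at percentiles 95.9 (CIN) and 94.1 (non-CIN), and ended 48.2 kb upstream, beyond the whole of *Mmp9* (164940780–164955850 on chromosome 2). In CIN replicate 1 the nearest was at percentile 58.3, also beyond *Mmp9*, and in non-CIN replicate 1 at percentile 21.9.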
